A study of Mus musculus with 2 samples.

Results

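A set of 10 microRNA (miRNA) genes of neurons, neuroendocrine cells and myelinating glia was followed in the calf muscle of newborn mice: Mir338, Mir219a-2, Mir137, Mir138-1, Mir138-2, Mir9-1, Mir9-2, Mir9-3, Mir7b and Mir383. They are 10 of the 2202 miRNA genes counted. The genes were chosen by the cell types they are known from, with their counts and their ratios between these libraries already known, so their levels and ratios are described here without a test. The tissue was gastrocnemius from female B6CASTF1/J mice, the first-generation hybrid of C57BL/6J and CAST/EiJ, at an age of 4 days. There was 1 group of 2 small RNA libraries, with no treatment and no comparison group, and the labels name a differently numbered female for each library while listing 1 donor identifier for both. The spread between the libraries may therefore be biological or technical. Library 1 held 5569392 reads assigned to miRNA genes on their own strand and library 2 held 4336759. Another 36.9% and 37.6% of all reads matched several places and were given to no gene.

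Muscle is innervated tissue. Motor and sensory axons run through it, wrapped by Schwann cells that are beginning to build myelin at this age, while the cell bodies of those neurons lie in the spinal cord and ganglia outside the muscle. A miRNA gene is transcribed as a hairpin, from which a mature strand of the 5′ or the 3′ arm is cut. The mature strand finds its target transcripts mainly through its seed, bases 2 to 8. MiR-338 and miR-219a are known from the differentiation of myelinating glia, miR-137, miR-138 and miR-9 from developing neurons, and miR-7 from the hypothalamus, the pituitary and pancreatic islets. In bulk tissue, fewer cells of a type and less RNA per cell cannot be told apart.

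Mature sequences are shown because a strand found in more than 1 counted gene can leave its genes with fewer counts. MiR-137-5p and miR-7b-3p, each found in 1 counted hairpin only, are left out. RefSeq (GRCm38.p6, the build also called mm10) lists mature strands for 9 of the 10 genes, without Mir383. Seeds are in capitals and each sequence reads 5′ to 3′.
miR-338-3p: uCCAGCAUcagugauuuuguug
miR-338-5p: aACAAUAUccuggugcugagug
miR-219a-5p: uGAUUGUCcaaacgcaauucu
miR-137-3p: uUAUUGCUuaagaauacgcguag
miR-138-5p: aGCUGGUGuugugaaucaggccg
miR-138-1-3p: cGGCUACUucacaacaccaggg
miR-138-2-3p: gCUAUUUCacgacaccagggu
miR-9-5p: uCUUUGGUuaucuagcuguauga
miR-9-3p: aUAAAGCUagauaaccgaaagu
miR-7b-5p: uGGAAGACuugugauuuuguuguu
miR-7a-5p: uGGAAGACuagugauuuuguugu

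The 9 genes encode 12 distinct mature strands with 12 distinct seeds, so these genes are not a seed family. Of the 12 strands, 8 occur in 1 counted hairpin only and 4 occur in more. Both strands of miR-9 stand in Mir9-1, Mir9-2 and Mir9-3 alike, miR-138-5p stands in Mir138-1 and Mir138-2, and miR-219a-5p stands in Mir219a-1 and Mir219a-2. A read of such a strand matches several places. By contrast, miR-7b-5p differs from miR-7a-5p, the product of Mir7-1 and Mir7-2, within the length of miR-7a-5p only by A10U, where miR-7a-5p is the reference and positions count from its 5′ end. The seed is the same, and Mir7b shares no more than 14 bases in a row with any other counted gene. A stretch of at least 20 bases is common to another counted gene and 6 of the 10. These are Mir219a-2 with 22 shared bases, Mir138-1 and Mir138-2 with 24, Mir9-1 and Mir9-2 with 33 and Mir9-3 with 26. Their levels are uncertain for that reason. Mir338 with 15 bases, Mir7b with 14, Mir383 with 13 and Mir137 with 11 fall below that length. Matches outside the counted genes were not searched.

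At the level of the whole set, Mir338 dominated library 1 but made up only about as much as the rest together in library 2. The 10 genes summed to 421 CPM (gene counts scaled to a common library total) and 646 CPM in libraries 1 and 2. Mir338 gave 82.1% of the set's counts in library 1 and 50.8% in library 2. Without Mir338 the other 9 genes summed to 75.2 CPM and 318 CPM, a 4.23-fold difference in plain CPM. Mir338 was set apart with the ratios known, so nothing is read from that fold. Mir137 alone stood at 33.6 and 178 CPM. Muscle identity was plain in both libraries, where Mir206, a miRNA of skeletal muscle, stood at 129336 and 119323 CPM. Detection required each library to reach 2 CPM. Of the 10 genes, 7 were detected, against 15.2% of all 2202 counted genes. The lowest detected one was Mir219a-2, at 2.15 CPM in library 1, and the first one outside the threshold was Mir9-3, with 0 counts in library 1 and 2.31 CPM in library 2.

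**Figure D1:**
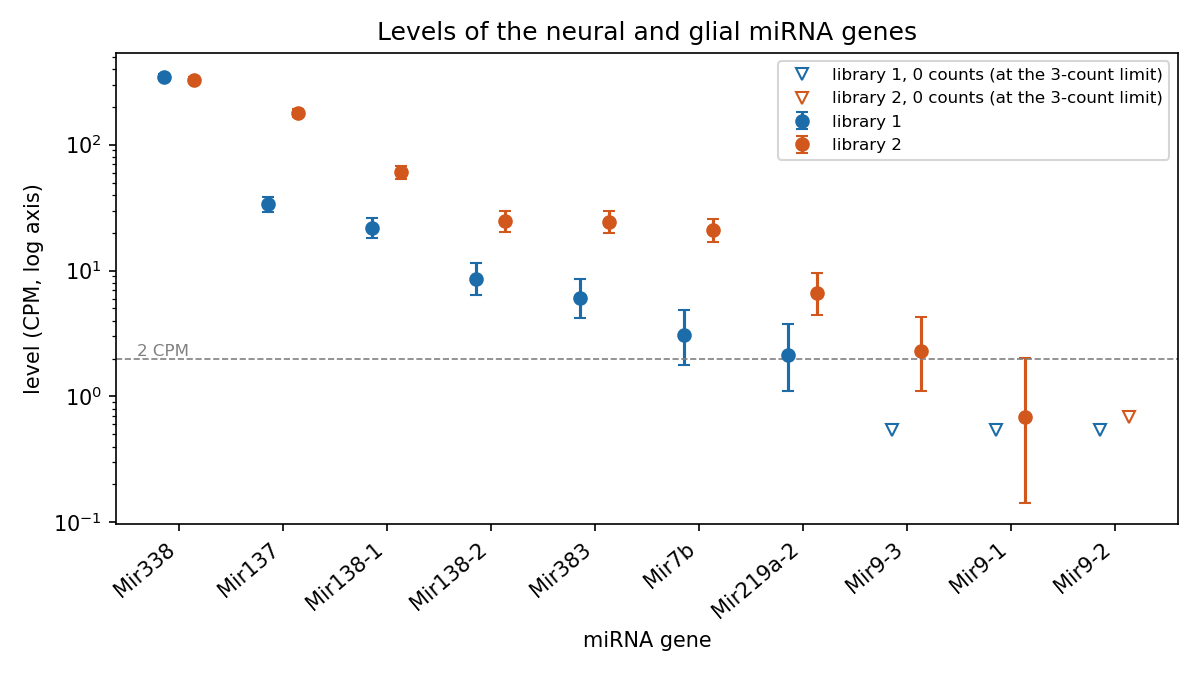
Level of each of the 10 genes in each library, in CPM on a log axis, ordered by mean level; bars are 95% counting intervals and open triangles mark 0 counts at the 3-count limit. Mir338 is level at 346 and 328 CPM, and every other gene with counts lies higher in library 2.

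Of the genes of myelinating glia, Mir338 was abundant and almost equal between the libraries. It lies on chromosome 11, minus strand, from 120014765 to 120014862 in mm10, in an intron of Aatk, a kinase gene. It had 1925 counts in library 1 and 1424 in library 2, which is 346 CPM (95% counting interval 330 to 361) and 328 CPM (312 to 346). The mean was 337 ± 12.2 CPM (SD, n = 2), rank 133 of the 335 detected genes. Counting intervals are exact and cover counting error only, since several reads can be copies of 1 molecule. The log2 ratio of library 2 to library 1 was -0.10 (-0.20 to 0.00). Ratios of library 2 to library 1 are scaled by the trimmed mean of M-values (TMM), which sets the library scale from most detected genes. The 4.23-fold difference of sums above is not.

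Mir219a-2, the second glial gene, was close to the detection threshold. On chromosome 2, minus strand, it runs from 29845631 to 29845727. It had 12 counts in library 1 and 29 in library 2, or 2.15 CPM (1.11 to 3.76) and 6.69 CPM (4.48 to 9.60). Library 2 was thus the higher one, by 3.06-fold (1.51 to 6.58). The log2 interval, 0.60 to 2.72, does not overlap that of Mir338. Its copy Mir219a-1, which shares the mature strand miR-219a-5p, had 11 and 17 counts and was not detected. The ratio of Mir219a-2 to Mir219a-1 was 1.09 (0.441 to 2.73) in library 1 and 1.71 (0.907 to 3.31) in library 2, and these intervals overlap. Mir338 exceeded Mir219a-2 in each library, and any miR-219a-5p reads that matched both copies are missing from the lower gene.

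Mir338 and Mir219a-2 each have a second counted hairpin on the opposite strand of the same DNA. Mir3065 overlaps Mir338 by 87 bases, its whole length, and Mir219b overlaps Mir219a-2 by 65 bases, again its whole length. The strand columns of the tables separate the partners. Mir3065 had 10 and 3 counts in libraries 1 and 2, so Mir338 exceeded it by 193-fold (104 to 402) in library 1 and by 475-fold (162 to 2304) in library 2. Nearly all reads at this locus lay on the Mir338 strand. Mir219b had 2 counts and 0. When strand was ignored, Mir338 and Mir219a-2 had 0 counts in both libraries, since reads on overlapping genes were then set aside as ambiguous. Mir9-1 overlaps the counted gene Gm25641 and likewise went from 3 counts to 0 in library 2. The other 7 genes had identical counts with and without strand and 0 counts on the opposite strand. The sequence of the partner strand is shown because it lies over miR-338-3p on the other strand and has a seed of its own.
miR-3065-5p: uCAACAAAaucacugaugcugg

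Of the neuronal genes among the 10, Mir137 was the highest and differed most in absolute level. MiR-137 acts in neural progenitors and at synapses. The gene sits on the plus strand of chromosome 3, from 118433857 to 118433929, within an exon of the noncoding transcript Gm26871. It had 187 counts in library 1 and 771 in library 2, or 33.6 CPM (28.9 to 38.7) and 178 CPM (165 to 191). The mean of 106 ± 102 CPM (SD, n = 2) describes neither library. Library 2 was higher by 5.21-fold (4.44 to 6.15), rank 3 of the 335 detected genes when ordered by ratio. Relative to Mir338, Mir137 had 0.0971 counts per Mir338 count (0.0831 to 0.113) in library 1 and 0.541 (0.495 to 0.591) in library 2. That ratio is taken within a library and needs no scaling between libraries. Mir137 shares no more than 11 bases with any other counted gene.

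The Mir138 pair, whose shared mature strand is known to limit the size of dendritic spines, differed alike between the libraries. On the plus strand, Mir138-1 spans chromosome 9 from 122682876 to 122682974, and Mir138-2 on chromosome 8, plus strand, from 94324311 to 94324381, where it falls in an exon of the noncoding transcript C78859. Mir138-1 overlaps an exon of the pseudogene Gm47135. Mir138-1 had 121 and 262 counts, or 21.7 CPM (18.03 to 26.0) in library 1 and 60.4 CPM (53.3 to 68.2) in library 2. Mir138-2 had 48 and 107 counts, or 8.62 CPM (6.35 to 11.4) and 24.7 CPM (20.2 to 29.8). The counting intervals of the libraries do not overlap for either gene. These intervals cover counting error only, and the share of all detected genes with intervals apart was not counted. The fold difference was 2.74 (2.20 to 3.43) for Mir138-1 and 2.82 (1.99 to 4.05) for Mir138-2. Within a library, Mir138-1 had 2.52 times (1.79 to 3.60) the counts of Mir138-2 in library 1 and 2.45 times (1.95 to 3.10) in library 2, so the proportion of the 2 copies was much the same. A read holding all of miR-138-5p and nothing more matches both copies, while the 3p strands of the copies differ in sequence and in seed. Which arm gave the counts is not recorded in the tables.

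The 3 Mir9 genes, known from neural progenitors and neurons, had almost no counts. Mir9-1 had 0 counts in library 1 and 3 in library 2, Mir9-2 had 0 in both, and Mir9-3 had 0 and 10. With 0 counts, a level as high as 0.539 CPM remains possible in library 1 and 0.692 CPM in library 2. Mir9-3 stood at 2.31 CPM (1.11 to 4.24) in library 2, above the limit for library 1. Mir9-1 and Mir9-2 lie at or under the limit in both libraries, and no fold is given for these genes. On the plus strand of chromosome 3, Mir9-1 runs from 88215598 to 88215686 in an intron of the noncoding RNA Gm3764. Mir9-2 is found on chromosome 13, plus strand, from 83738814 to 83738885, in an exon of C130071C03Rik, and Mir9-3 on chromosome 7, plus strand, from 79505264 to 79505353, in an intron of Mir9-3hg. Both mature strands of miR-9 are identical in all 3 hairpins, so reads of either whole strand match at least 3 places. The low counts therefore do not give the amount of miR-9 in the muscle. Mir124a-1, Mir124a-2 and Mir124a-3, the classical neuronal miRNA genes, are in the same position, with 32 shared bases and 1 count in all 3 genes and both libraries together.

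Mir7b and Mir383, both low in library 1, were several-fold higher in library 2. Mir7b is on the plus strand of chromosome 17, from 56242988 to 56243098, inside no annotated host gene. It had 17 and 91 counts, or 3.05 CPM (1.78 to 4.89) in library 1 and 20.98 CPM (16.9 to 25.8) in library 2. The fold difference was 6.77 (4.00 to 12.1), rank 2 of the 335 detected genes. Mir383 lies on chromosome 8, minus strand, from 38252133 to 38252202, in an intron of Sgcz, which encodes zeta-sarcoglycan, a component of the muscle membrane complex. It had 34 and 106 counts, or 6.10 CPM (4.23 to 8.53) and 24.4 CPM (20.0 to 29.6), and the fold difference was 3.94 (2.66 to 5.99). For both genes the library intervals, which cover counting error only, lie apart. As for the Mir138 pair, the share of all detected genes with intervals apart was not counted.

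Of the miR-7a genes, Mir7-1 differed from Mir7b in its ratio between libraries, while Mir7-2 did not differ from Mir7b beyond counting error. Mir7-1, which encodes miR-7a-5p, had 100 counts in library 1 and 72 in library 2, with a log2 ratio of -0.14 (-0.59 to 0.32), an interval that does not overlap that of Mir7b. Mir7b had 0.170 counts per Mir7-1 count (0.0953 to 0.286) in library 1 and 1.26 (0.918 to 1.75) in library 2. Mir7b was thus the lower of the pair in library 1, while in library 2 the counts of the pair were within counting error of each other. Mir7-2, the second miR-7a gene, had 4 and 19 counts and a log2 ratio of 2.59 (0.997 to 4.602), which overlaps the interval of Mir7b. Mir7-1 and Mir7-2 share 24 bases, which makes both counts uncertain.

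Among the 7 detected genes, 6 were more than 2-fold higher in library 2 and none was more than 2-fold lower. Over all 335 detected genes, 5.97% were more than 2-fold higher in library 2 and 0 were more than 2-fold lower. The genes were chosen with these ratios known, so nothing is read from that share. The median log2 ratio was 1.61 over the 7 genes and 0.03 over all detected genes, whose 5th and 95th percentiles were -0.60 and 1.11. The ratios of the genes were unequal among themselves. The log2 interval of Mir137 (2.15 to 2.62) lies above those of Mir138-1 (1.14 to 1.78) and Mir138-2 (0.99 to 2.02), and that of Mir7b (2.00 to 3.60) above that of Mir138-1. Mir383 (1.41 to 2.58) and Mir219a-2 (0.60 to 2.72) overlap all 4 of these, and Mir338 overlaps none.

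**Figure D2:**
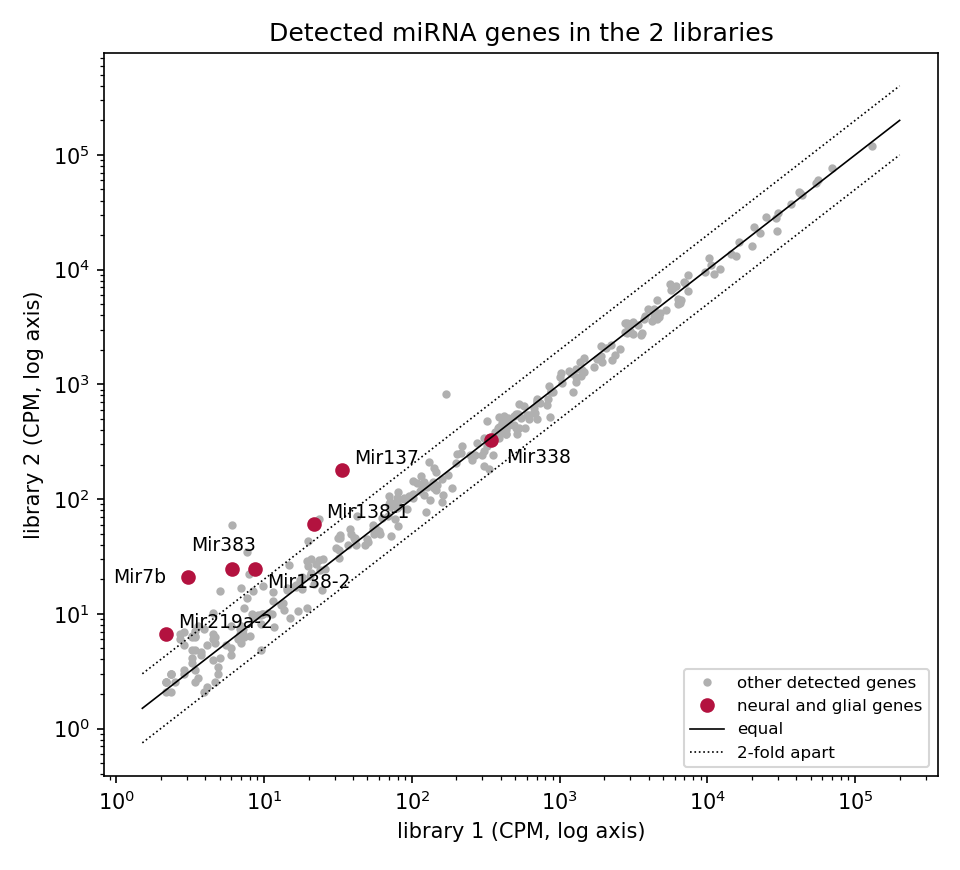
Level of each of the 335 detected genes in library 1 and library 2 (CPM, log axes), with the 7 detected neural and glial genes in red, equality as a solid line and 2-fold distance as dotted lines. Mir338 lies at the line of equality and the other 6 lie above the upper dotted line.

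The order of the levels was the same in each library. From high to low it ran Mir338, Mir137, Mir138-1, Mir138-2, Mir383, Mir7b, Mir219a-2. Over both libraries only Mir338 stood clear of its neighbour, because its lower value of 328 CPM exceeds the higher value of Mir137, 178 CPM. Every other pair of neighbours in that order overlapped over the 2 libraries. Some neighbours were also within counting error of each other in 1 library. Mir138-2 and Mir383 had 107 and 106 counts in library 2, and Mir7b and Mir219a-2 had 17 and 12 in library 1. Levels are counts per hairpin gene and are not scaled by length, since the reads are cut strands of similar size.

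Detected genes with the most similar pair of levels were found by the distance of log2(CPM + 0.5) over the 2 libraries. For Mir338 the 3 nearest were Mir1839, Mir224 and Mir128-2, at distances of 0.09, 0.11 and 0.18. Mir128-2 belongs to the neuronal list below. For Mir219a-2 they were Mir488, n-TSaga9 and Mir135b, at 0.27, 0.30 and 0.35. Mir138-1 was nearest to Mir449a, Mir205 and Mir1188 (0.19, 0.50 and 0.66), and Mir138-2 to Mir429, Mir383 and Mir760 (0.18, 0.47 and 0.51). Mir205 and Mir429 are epithelial genes. Mir383 was nearest to Mir429, Mir138-2 and Mir702 (0.37, 0.47 and 0.56), and Mir7b to Gm26117, Mir383 and Mir702 (0.76, 0.92 and 1.12). Mir137 had no close neighbour, as Mir3099, Mir598 and Mir330 lay 1.29, 1.35 and 1.39 away. With 2 libraries, such likeness is a likeness of level and ratio only.

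The neural gene lists held 22 further genes of the tables, of which 10 were detected. Of these 10, 1 was more than 2-fold higher in library 2 and none was more than 2-fold lower, and their median log2 ratio was 0.19. The one was Mir488, a brain miRNA gene with 15 and 29 counts and a log2 ratio of 1.29 (0.34 to 2.29). Mir598 had a log2 ratio of 0.73 (0.48 to 0.98) from 236 and 309 counts, and Mir132, an activity-regulated neuronal miRNA, one of 0.38 (0.24 to 0.52) from 790 and 812 counts. Mir212, which is clustered with Mir132, had 33 and 19 counts and -0.46 (-1.35 to 0.40). The most abundant genes of the neuronal list differed little. Mir128-1 stood at 532 and 668 CPM and Mir128-2 at 306 and 340 CPM, with log2 ratios of 0.31 (0.23 to 0.38) and 0.13 (0.03 to 0.23). They share 23 bases, so both levels are uncertain.

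Genes of motor neurons, the neurons whose axons end on muscle fibres, showed no difference beyond counting error. Mir218-1 had 12 and 11 counts and Mir218-2 had 40 and 32. The log2 ratio of their summed counts was 0.06 (-0.55 to 0.68), and a difference within that interval was not detectable at this depth. These copies share 22 bases and are undercounted where reads match both. Mir375, an islet and neuroendocrine gene, had 79 and 70 counts and a log2 ratio of 0.16 (-0.32 to 0.65).

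Some neural genes below the detection threshold were also higher in library 2. Mir129-2 had 3 and 21 counts, a log2 ratio of 3.15 (1.40 to 5.53). Mir873a had 1 and 14 counts, a log2 ratio of 4.15 (1.43 to 9.55). Both overlap a counted gene on the opposite strand. Mir129-1 had 6 and 3 counts, Mir153 had 1 and 1, and Mir219c had 1 and 0.

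**Figure D3:**
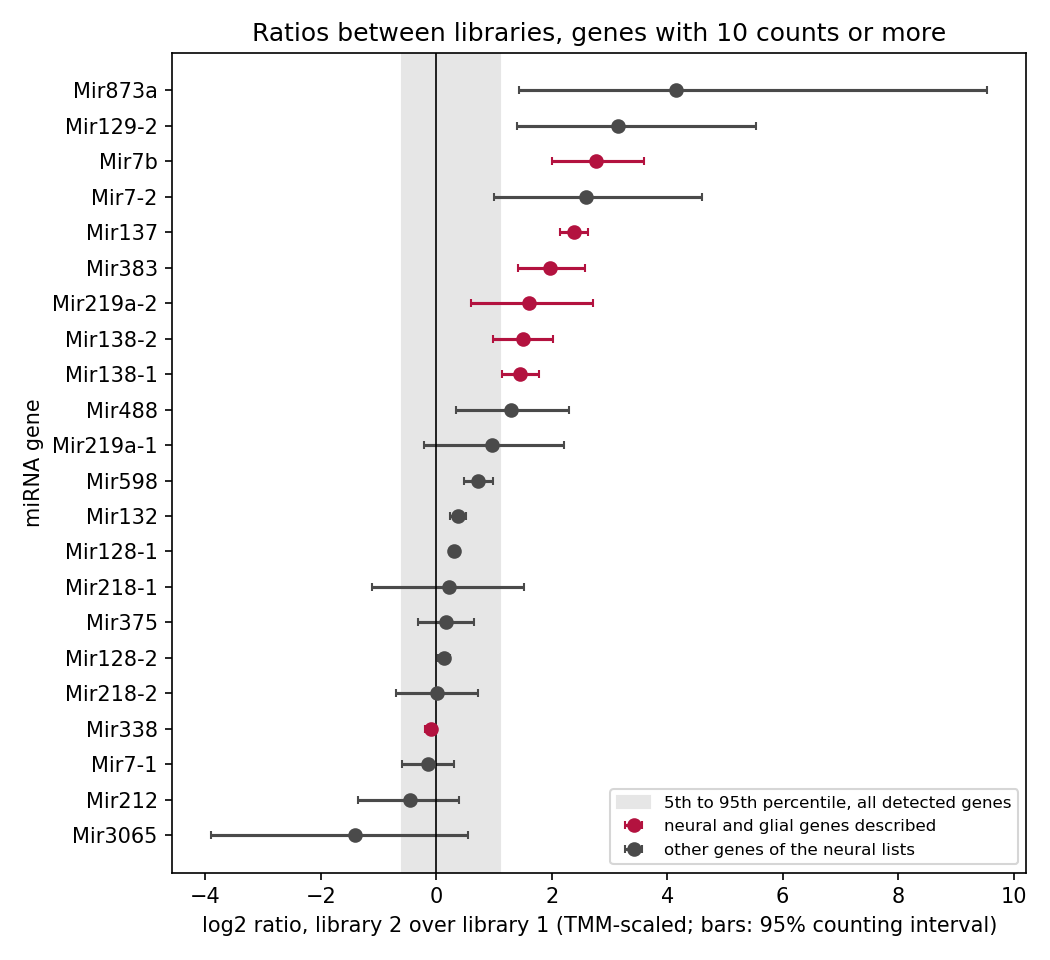
Log2 ratio of library 2 to library 1 (TMM-scaled) for genes of the neural lists with counts in both libraries and 10 or more in all, with 95% counting intervals; red marks the neural and glial genes described, dark grey the other listed genes, and the shaded band the 5th to 95th percentile (-0.60 to 1.11) of the 335 detected genes. Mir7b, Mir137, Mir383, Mir219a-2 and both Mir138 genes lie to the right of the band, and Mir338 lies inside it near 0.

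Some markers of other cell types also differed between the libraries, several in the same direction. Mir122, the defining miRNA of liver cells, had 942 counts in library 1 and 3573 in library 2, or 169 and 824 CPM, a log2 ratio of 2.26 (2.16 to 2.37). Its interval overlaps those of Mir137, Mir7b, Mir383 and Mir219a-2. The 7 epithelial genes summed to 267 and 375 CPM. All 5 detected ones were higher in library 2, as were 53.4% of all 335 detected genes. Mir429 was at a log2 ratio of 1.48 (0.95 to 2.03), Mir205 at 1.09 (0.74 to 1.44) and the most abundant, Mir203, at 0.26 (0.14 to 0.39). The 3 sensory organ genes, led by Mir183, summed to 55.5 and 63.6 CPM. The log2 ratio of these sums was 0.18 (-0.06 to 0.41), within counting error of 0. The 2 erythroid genes, led by Mir451a, summed to 96.8 and 119 CPM, a log2 ratio of 0.28 (0.10 to 0.46). The other erythroid gene, Mir144, was at -0.09 (-0.47 to 0.28).

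Other lists went the opposite way. The 5 leukocyte genes, led by Mir223, summed to 657 and 408 CPM in libraries 1 and 2. The 2 endothelial genes, nearly all Mir126a, summed to 29519 and 21932 CPM, and the 11 muscle genes, nearly all Mir206, to 131004 and 120708 CPM. Of the 9 detected muscle genes, 4 were higher in library 2, so the muscle sum follows Mir206. Among all detected genes the share higher in library 2 was 53.4%. Shared stretches were searched for the neural lists only, so the muscle counts may lack reads that match several places. As summed levels, the 6 genes of myelinating glia stood at 352 and 340 CPM and the 20 neuronal genes at 1103 and 1578 CPM. Most of the neuronal sum came from Mir128-1 (532 and 668 CPM) and Mir128-2 (306 and 340 CPM). The 2 motor neuron genes summed to 9.34 and 9.92 CPM and the 4 neuroendocrine genes to 35.9 and 58.1 CPM. Detected were 9 of 11 muscle genes, 1 of 2 endothelial, 4 of 5 leukocyte, 2 of 2 erythroid, 2 of 3 sensory organ and 5 of 7 epithelial genes, and of these lists Mir142b alone was at 0 in both libraries. The part of these other cell types in the ratios of Mir219a-2, Mir137, Mir138-1, Mir138-2, Mir7b and Mir383 was not tested, and with 1 group of 2 libraries a difference between animals, dissection and library preparation cannot be told apart.

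**Figure D4:**
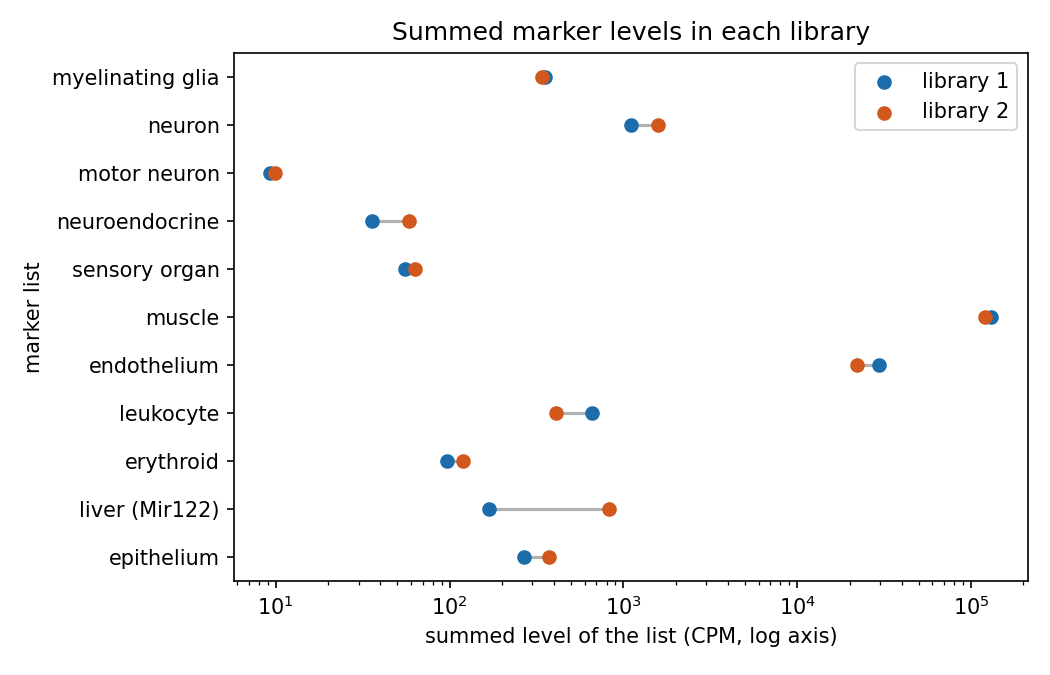
Summed level of each marker list in library 1 (blue) and library 2 (orange), in CPM on a log axis. The liver gene Mir122 is furthest apart (169 and 824 CPM), and the glial list, nearly all Mir338, is close to equal (352 and 340 CPM).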

How the data were processed

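Raw counts per gene were deposited for each library; the assembly was mm10 and the annotation GENCODE M21, per the labels and the accompanying deposited notes. Which aligner and counter made them is not given in the sources used here. The tables list counts without regard to strand, on the gene's own strand and on the opposite strand. The 4 lines that name no gene were left out of totals. All 2202 identifiers matched M21 miRNA genes, which gave symbols, positions, hosts and hairpin sequences; mature sequences came from RefSeq.

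Levels are own-strand CPM. Ratios are own-strand count ratios scaled by TMM factors computed on the detected genes in edgeR 4.0.16 (R 4.3.3), with exact conditional binomial intervals at 95%, and were given where a gene had counts in both libraries and 10 or more in all. Level intervals are exact Poisson. Where a gene had 0 counts, 3 counts per library served as the upper limit. The ratio intervals were checked on simulated counts with counting error only, so that check does not cover other spread between libraries. No test was run, as there is 1 group of 2 libraries. Alternatives were unstranded counts, other detection limits, DESeq2 1.42.0 size factors, plain totals, pseudocounts of 0.1, 0.5 and 5 CPM, each library alone, and other shared lengths. Intervals used scipy 1.17.1, under Python 3.11.15, and figures matplotlib 3.10.9.

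The 10 genes and the 11 lists were chosen with earlier results of these data known; 63 of 71 listed symbols were in the tables, several of the rest being alternative spellings. The genes named are the 10, all genes of the 4 neural lists, antisense partners, the 3 nearest detected genes of each detected one and the highest gene of each other list. Mir144, the other erythroid gene, is named outside this rule, and Mir142b was named after its values were seen. No genome sequence was used, so matches outside the counted hairpins were not searched.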

Additional observations from a re-analysis of the deposited data

Results flagged for a closer look

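Mir338 had 10 counts in the opposite-strand column of library 1, a column outside the main values. That is more than the 3 counts taken as the limit of an empty gene. Library 2 had 3 there. These are the counts of Mir3065, which lies on that strand.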

How the results depend on the processing

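With strand ignored, the summed level of the 10 genes fell from 534 to 218 CPM, because Mir338 and Mir219a-2 then had 0 counts, and 5 of the 10 were detected in place of 7. At 10 CPM in both libraries 3 genes were detected, and 2 of these 3 were more than 2-fold apart, in place of 6 of 7. Of all genes, 254 passed that limit and 5 of them were more than 2-fold apart. Library 1 alone gave a sum of 421 CPM and 7 detected genes, and library 2 alone gave 646 CPM and 8. At 1 count in either library, 9 genes were detected, while 1462 of all 2202 counted genes had 0 counts in both libraries. For unstranded counts and for each library alone, the share of all genes is not given here. The median log2 ratio of 1.61 ranged from 1.29 to 1.63 over the DESeq2, plain total and pseudocount settings, and 6 genes stayed more than 2-fold apart with DESeq2 factors and with plain totals. Of all detected genes, 20 were more than 2-fold higher in library 2 with either scaling. With DESeq2 factors 1 was more than 2-fold lower, and with plain totals 0 were. With a pseudocount of 5 CPM the log2 ratio of Mir219a-2 fell from 1.61 to 0.71, below 2-fold, that of Mir7b was 1.69 and that of Mir383 was 1.41, and 11 of all detected genes in place of 20 were more than 2-fold higher in library 2. No sign changed under any of these settings. Sharing called at 18 or 24 bases gave 6 and 5 genes. Low counts limit Mir219a-2, Mir7b and the Mir9 genes most. No paired analysis was possible because the series has 1 group.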
